A study of Mus musculus with 24 samples.

Results

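A set of 36 genes that act in mitosis and in the G2 phase before it was described gene by gene in 21 thymic lymphomas and 3 samples of normal thymus. The members were taken as a named list, from the transcription factor Foxm1 to the proliferation marker Mki67, and each is 1 row of a count table of 21878 genes. All 36 were found and all passed the filter on low counts, with at least 100 counts in every library. The lymphomas arose in B6C3F1 female mice, a hybrid strain, after whole-body exposure to carbon ions, heavy charged particles that deposit much energy along a short track. The labels give 4 doses of 1.6 Gy, 1 per week from the age of 4 to 5 weeks, for the thymus samples too, whose titles hold an unexplained 7W. The mutation status was read from the headers of 2 filtered tables the authors deposited: 11 lymphomas (numbers 2, 4, 7, 9, 10 and 12 to 17) carried an Ikzf1 mutation and 10 (18 to 22, 30 to 32, 34 and 35) did not. Ikzf1 encodes Ikaros, a zinc finger transcription factor of lymphoid cells. RNA was made from cell suspensions, of tumour or of thymocytes, and no label ties a lymphoma to an animal. The p-values therefore speak of library-to-library spread alone. In bulk RNA, fewer cells in mitosis and less mitotic RNA per cell cannot be told apart.

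Transcripts of mitosis build up late in the cell cycle and are cleared when cells divide. During quiescence and G1 many of their genes are held silent by the DREAM complex, and in S and G2 phase the same MuvB core joins B-Myb and then FoxM1 to switch them on. Cyclin B with Cdk1 drives entry, the Aurora and Polo kinases build the spindle, the checkpoint holds the anaphase-promoting complex until every kinetochore is attached, and that complex then ends mitosis by destroying cyclin B and securin. In the thymus, division is concentrated in early thymocytes and in the cells that have just passed selection for the T-cell receptor beta chain, while most double-positive thymocytes rest.

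Totals were 14998988 to 36559710 counts in the lymphomas and 24543936 to 27544876 counts in thymus. Levels of 1 gene between libraries are given in CPM, counts scaled to a common library size with TMM factors, and levels between genes in the deposited TPM, which is per transcript length. The identity of the tissue was checked against 10 T-cell markers, which were detected in all libraries and summed to 4606 to 8883 CPM in the lymphomas and 10835 to 11883 CPM in thymus, 7 of the 10 being lower in the lymphomas. Of all tested genes, 15.4% were called higher in the lymphomas and 15.4% lower. The T-cell markers were uneven, Tcf7 and Thy1 reaching 4636 and 2663 CPM in the lymphomas. Cd2 was low in both tissues (0.49 to 11.2 CPM in the lymphomas, 2.91 to 8.77 CPM in thymus). Cd5 and Lck fell to 1.21 and 13.8 CPM in the lymphomas, against at least 330 and 586 CPM in thymus. Of markers of other cells, 11 of 13 macrophage genes were higher in the lymphomas (summed 320 to 1447 CPM, against 156 to 232 CPM in thymus), as were 7 of 10 fibroblast genes (33.6 to 1033 CPM, against 8.39 to 10.7 CPM). Col1a2 alone reached 949 CPM in the mutated set and 232 CPM in the unmutated set. The next highest fibroblast genes there were Col1a1 at up to 37.1 CPM and Col3a1 at up to 39.3 CPM. In contrast 8 of 9 neutrophil genes and 6 of 9 measured genes of thymic epithelium were lower, and no B-cell gene of 8 was called. The B-cell genes varied widely, summing to 2.78 to 241 CPM in the lymphomas (highest in lymphoma 35), against 53.3 to 89.5 CPM in thymus. The part of any of these cell types in the results was not tested.

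The members spanned a wide range of levels and kept much the same order in tumour and thymus. Top2a, the topoisomerase that untangles sister chromatids, stood first in both, at 592 ± 141 TPM in the lymphomas and 579.5 ± 164 TPM in thymus (SD, n = 21 and 3). Ube2c, the ubiquitin-conjugating enzyme of the anaphase-promoting complex, was second in both, at 328 ± 84.3 TPM in the lymphomas and 468 ± 73.9 TPM in thymus. Kif11, the motor that pushes spindle poles apart, was last in both, at 6.62 ± 2.78 and 4.36 ± 2.30 TPM. The members between them had medians of 130 TPM in the lymphomas and 133 TPM in thymus, and most neighbours in this order lay closer than their SD. Members that changed place by 5 ranks or more were Bub1b (rank 3 in the lymphomas and 13 in thymus), Cenpa (14 and 6), Aurkb (12 and 17), Cdc25b (16 and 21), Birc5 (20 and 14) and Ndc80 (28 and 22).

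Within the lymphomas, a library that was high or low for 1 member was often so for many. The highest lymphoma exceeded the lowest by 2.4 to 4.88 times, and the SD of log2 CPM was 0.32 to 0.54 (median 0.39, against 0.36 over all tested genes). Lymphoma 7, of the mutated set, was the lowest of all lymphomas for 31 of 36 members, lay below every thymus library for 32, and had a summed member level of 3597 CPM. Lymphoma 20 was the lowest of the unmutated set for 28 members (summed 5478 CPM), and lymphoma 14 the highest of the mutated set for 20 (summed 9191 CPM). Lymphoma 31 lay above the thymus range for 26 members and below it for 0. Thymus libraries showed the same kind of spread, with library 3 the highest of the 3 for all 36 members and library 2 the lowest for 33, so their summed levels were 6623, 5377 and 8222 CPM in libraries 1 to 3. The mutated set ran from 3597 to 9191 CPM (median 6868), and the unmutated set from 5478 to 9161 CPM (median 8258), which overlaps both the other set and thymus.

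**Figure D1:**
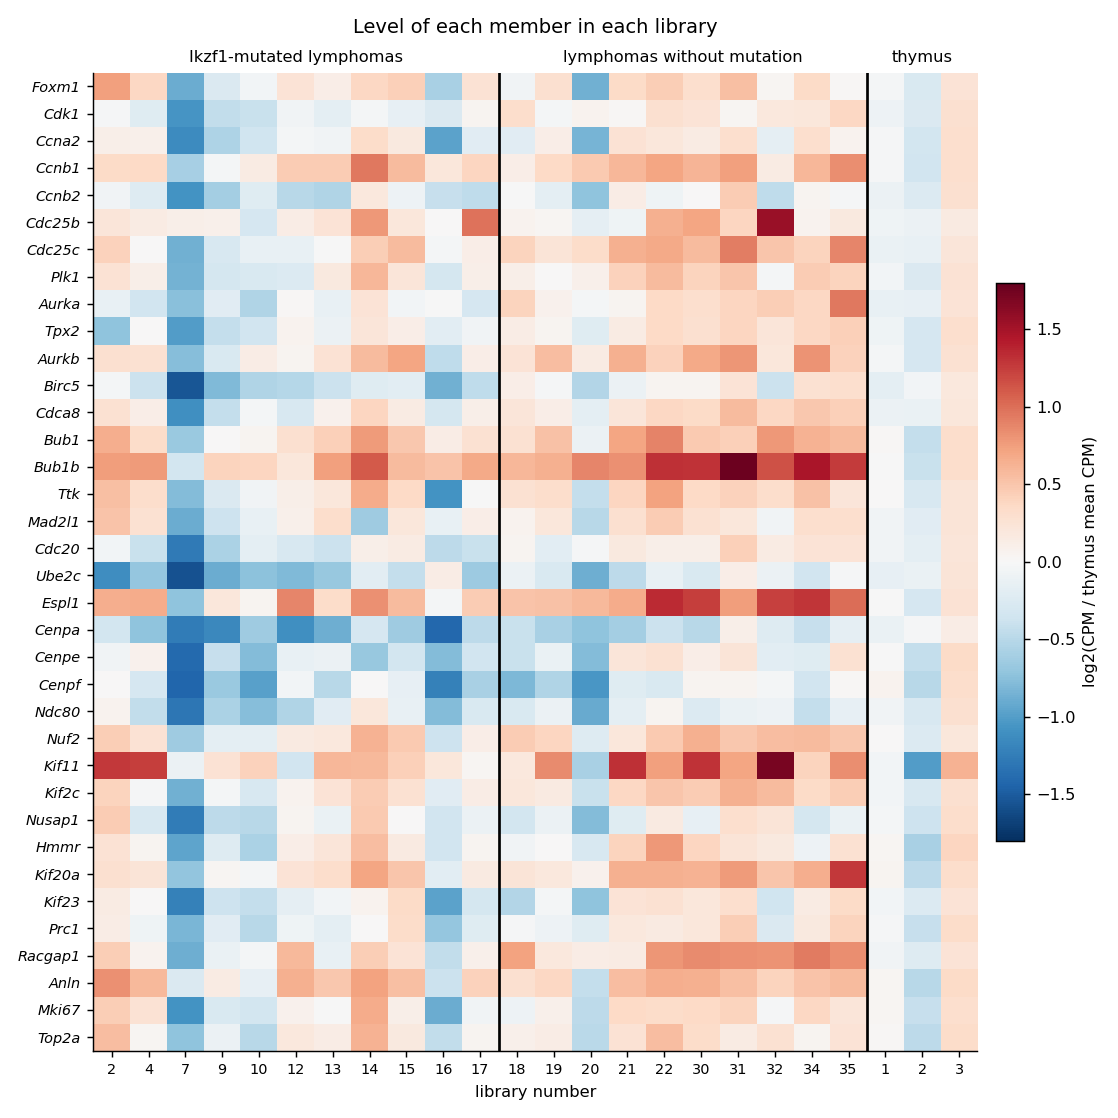
Level of each of the 36 members (rows, ordered by role) in each library (columns, by library number), as the log2 ratio of its CPM to the mean of the 3 thymus libraries. Mutated lymphomas stand left, lymphomas without mutation next and thymus right. Lymphoma 7 lies below all 3 thymus libraries for 32 members, and lymphomas 14, 22, 31 and 35 lie above all 3 for 22 to 26 members. The rows of Bub1b and Espl1 are high and that of Cenpa low in most lymphomas.

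The members also shared promoter letters. Many genes of mitosis are known targets of MuvB complexes, as said above, so the shares describe the list and are no independent result. Of the 36, 30 had a promoter in the RefSeq table, 250 bases before to 50 after a start site, on GRCm38.p6. The cell-cycle genes homology region (CHR), the element on which MuvB complexes sit, was searched as TTTGAA or TTCGAA on both strands, and the CCAAT box, bound by NF-Y, as CCAAT on both strands. Matches of the 2 motifs were counted separately, overlaps allowed. CHR letters were found in 24 of the 30 (80%), against 19.2% of 32851 promoters and 14.2% of 12804 promoters of tested genes. Within 50 bases of the start site on either side the shares were 73.3% and 5.31% of all promoters. CCAAT was found in 76.7% of member promoters and 37.4% of all, and both motifs in 70% and 7.52%. CHR letters were most frequent in the 50 bases after the start (50% of members) and CCAAT in the 100 bases before it. Nuf2, Nusap1, Cenpe, Mad2l1, Birc5 and Ccnb1 had no CHR match in this window, which says nothing of other letters or of binding. The RefSeq start sites of Cdca8 and Kif2c lie 2394 and 3867 bases from the annotated gene start. Those of Mad2l1, Cenpa, Ccnb1 and Aurka lie 169, 109, 84 and 35 bases from it, and all positions here are counted from the RefSeq site.

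**Figure D2:**
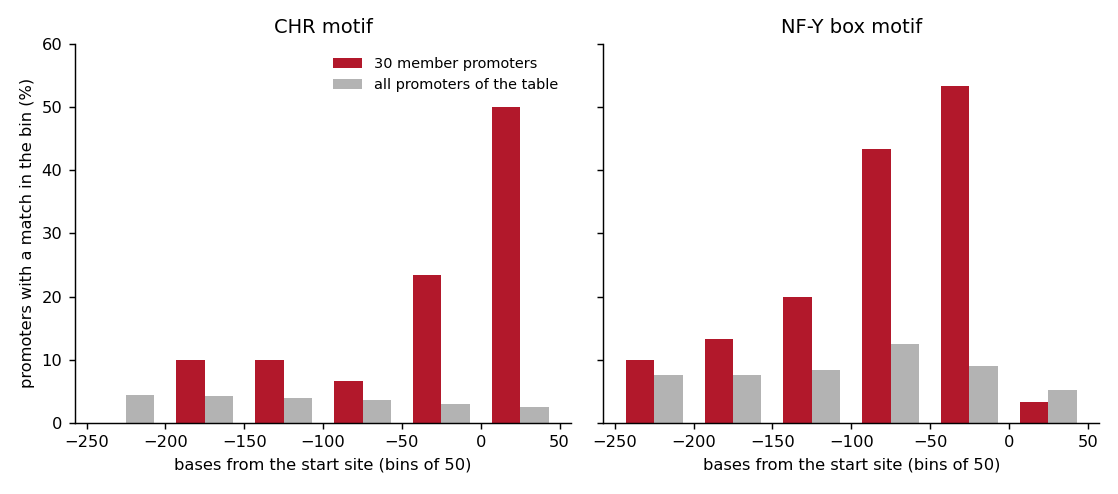
Share of promoters (y axis, %) with a CHR match (left) or a match to the NF-Y box (right) in bins of 50 bases by distance from the start site (x axis). Red bars are the 30 member promoters and grey bars all 32851 promoters of the table. CHR matches reach 50% of members just after the start and the NF-Y box 53.3% just before it, against 2.46% and 9.03% of all promoters in those bins.

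The promoters of 6 genes on which the comparisons turn are shown: Aurka, Cdk1, Bub1b, Cdc20 and Birc5, which differed between the lymphoma sets, and Cenpa, which was lower than in thymus. Each runs 5′ to 3′ along its gene, from RefSeq GRCm38.p6, with matches to CHR and to the CCAAT box, on either strand, in capitals. They lie at chr2:172370521-172370820 (minus strand, Aurka), chr10:69352863-69353162 (minus, Cdk1), chr2:118597961-118598260 (plus, Bub1b), chr4:118437294-118437593 (minus, Cdc20), chr11:117848987-117849286 (plus, Birc5) and chr5:30666636-30666935 (plus, Cenpa). In Aurka and Cenpa 2 CCAAT boxes precede 1 CHR match that begins 33 and 17 bases past the RefSeq start site. In Cdc20 a CHR match lies between 2 CCAAT boxes, in Cdk1 2 CHR matches lie among 3 boxes, Bub1b has a CHR match on each side of 1 box, and Birc5 has neither motif.
Aurka: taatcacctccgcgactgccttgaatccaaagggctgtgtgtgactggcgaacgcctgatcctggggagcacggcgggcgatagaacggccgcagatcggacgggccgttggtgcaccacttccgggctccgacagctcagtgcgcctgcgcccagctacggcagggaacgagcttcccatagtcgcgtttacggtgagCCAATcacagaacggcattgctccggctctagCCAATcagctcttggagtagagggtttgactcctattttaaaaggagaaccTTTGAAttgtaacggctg
Cdk1: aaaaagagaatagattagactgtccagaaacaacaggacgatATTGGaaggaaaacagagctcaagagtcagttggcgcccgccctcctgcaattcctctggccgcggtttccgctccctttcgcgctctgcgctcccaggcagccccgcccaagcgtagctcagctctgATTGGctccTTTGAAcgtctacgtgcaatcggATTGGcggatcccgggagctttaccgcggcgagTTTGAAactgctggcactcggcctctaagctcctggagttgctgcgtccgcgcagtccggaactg
Bub1b: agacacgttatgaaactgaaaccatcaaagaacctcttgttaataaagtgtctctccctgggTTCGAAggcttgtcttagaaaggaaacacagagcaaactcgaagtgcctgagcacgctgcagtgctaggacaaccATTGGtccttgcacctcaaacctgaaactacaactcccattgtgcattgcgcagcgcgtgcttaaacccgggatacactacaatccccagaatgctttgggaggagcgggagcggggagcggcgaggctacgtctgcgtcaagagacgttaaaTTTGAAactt
Cdc20: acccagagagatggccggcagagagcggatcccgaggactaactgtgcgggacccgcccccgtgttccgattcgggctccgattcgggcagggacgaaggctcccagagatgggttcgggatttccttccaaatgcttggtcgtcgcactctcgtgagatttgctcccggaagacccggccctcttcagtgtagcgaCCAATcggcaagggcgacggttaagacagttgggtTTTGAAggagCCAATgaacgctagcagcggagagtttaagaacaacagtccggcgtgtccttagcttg
Birc5: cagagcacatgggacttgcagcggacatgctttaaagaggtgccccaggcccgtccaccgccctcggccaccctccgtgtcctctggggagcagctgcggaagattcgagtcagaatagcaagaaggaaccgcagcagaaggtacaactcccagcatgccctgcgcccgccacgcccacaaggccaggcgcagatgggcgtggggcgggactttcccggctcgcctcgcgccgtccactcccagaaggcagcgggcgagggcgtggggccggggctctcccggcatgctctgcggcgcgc
Cenpa: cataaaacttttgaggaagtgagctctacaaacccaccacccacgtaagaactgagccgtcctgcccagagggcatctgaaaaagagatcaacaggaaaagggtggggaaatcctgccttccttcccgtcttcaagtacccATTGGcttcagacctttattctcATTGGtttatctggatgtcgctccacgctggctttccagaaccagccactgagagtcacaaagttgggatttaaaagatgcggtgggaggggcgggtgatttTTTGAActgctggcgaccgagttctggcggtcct

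The comparison of the lymphoma sets asks whether Ikzf1 mutation goes with a different level of these genes. All 36 members had a log2 fold change below 0 in the mutated set, with a median of -0.29, against 0.003 over all 13121 tested genes, of which 49.6% were below 0. Tested with edgeR (quasi-likelihood, p adjusted over all genes), 7 members (19.4%) were lower in the mutated set and 0 higher. Of all tested genes, 2.95% were called lower, 2.43% higher and 5.38% in either direction. A further 12 passed only unadjusted. In all, 19 of the 36 had an unadjusted p under 0.05, as did 3029 of the 13121 tested genes. The ranges of the sets overlapped for every member, and 34 of the 36 had a lower median CPM in the mutated set. Since members move together within a library, the 36 signs are not independent. On the log2(TPM + 0.1) scale, which moves the median of all genes to 0.10, 32 of the 36 were below 0, their median was -0.21 and 1, Aurka, was called.

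Aurka, the kinase that matures spindle poles, was the firmest of the 7. It had 58.3, 88.8 and 117 CPM (lowest, median and highest) in mutated lymphomas, against 95.0, 126 and 189 CPM in unmutated ones, with 89.1, 88.4 and 116 CPM in thymus. All 11 mutated lymphomas lay below the median of the unmutated set, and the highest value belonged to lymphoma 35. The log2 fold change was -0.53 (SE 0.12, edgeR adjusted p = 0.0157), and it passed in every fit with 1 library left out (adjusted p 0.0127 to 0.0334). Cdk1, the kinase that cyclin B activates, had 75.4, 138 and 162 CPM in mutated lymphomas, against 154, 179 and 203 CPM in unmutated ones, with 147, 131 and 192 CPM in thymus. The 2 sets met only between 154 and 162 CPM, and thymus covered parts of both. The log2 fold change was -0.40 (SE 0.10, edgeR adjusted p = 0.0281), lost without lymphoma 18, 34 or 35.

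Bub1b, which encodes BubR1 of the mitotic checkpoint complex, had the largest difference. It had 175, 327 and 473 CPM in mutated lymphomas, against 333, 506 and 748 CPM in unmutated ones, with 219, 167 and 276 CPM in thymus. Both sets reached above thymus, the unmutated one in all 10 lymphomas and the mutated one in 9 of 11. The log2 fold change between the sets was -0.60 (SE 0.16, edgeR adjusted p = 0.0304), lost without lymphoma 22, 30 or 34. Cdc20, the activator of the anaphase-promoting complex that BubR1 restrains, had 71.9, 133 and 192 CPM in mutated lymphomas, against 152, 191 and 234 CPM in unmutated ones, with 167, 154 and 202 CPM in thymus. Here 7 of 11 mutated lymphomas lay below the thymus range and 0 above it. Its log2 fold change of -0.44 (SE 0.12, edgeR adjusted p = 0.0389) was the least firm of the 7, lost in 13 of 24 fits with 1 library left out, and Cdc20 shares 53 exonic bases with Elovl1 on the other strand.

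Birc5 encodes survivin, a subunit of the chromosomal passenger complex that places Aurora B. It had 67.7, 144 and 193 CPM in mutated lymphomas, against 137, 204 and 245 CPM in unmutated ones, with 175, 192 and 226 CPM in thymus. In the mutated set 10 of 11 lymphomas lay below the thymus range, while the unmutated set lay around it. The log2 fold change was -0.52 (SE 0.14, edgeR adjusted p = 0.0332), lost without lymphoma 9, 17, 18, 22, 30, 34 or 35. Cdc25c, a phosphatase that activates Cdk1, was the lowest in level of the 7. It had 15.3, 27.6 and 41.2 CPM in mutated lymphomas, against 32.6, 40.1 and 52.6 CPM in unmutated ones, with 25.7, 25.4 and 32.2 CPM in thymus. The mutated set surrounded thymus and all 10 unmutated lymphomas lay above it. The log2 fold change was -0.52 (SE 0.14, edgeR adjusted p = 0.0317), lost without lymphoma 22 or 35, and 623 exonic bases of Cdc25c are shared with Gm3550 on the other strand, which counts cannot separate if strand was not used.

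Racgap1, the subunit of centralspindlin that sets the cleavage plane, was the cytokinesis gene among the 7. It had 111, 214 and 306 CPM in mutated lymphomas, against 224, 357 and 391 CPM in unmutated ones, with 195, 175 and 243 CPM in thymus. In the unmutated set 7 lymphomas lay above thymus and lymphomas 19, 20 and 21 inside its range. The log2 fold change was -0.58 (SE 0.15, edgeR adjusted p = 0.0310), lost without lymphoma 18, 22, 30, 34 or 35. Racgap1 and Espl1 lie on chromosome 15, whose 492 other tested genes had a median log2 fold change of -0.27 between the sets, against -0.04 to 0.07 for the other chromosomes. Over the 353 of these genes with a mean of at least 10 CPM, the median log2 ratio to the thymus mean was -0.08 to 0.55 in mutated lymphomas (median -0.01) and -0.02 to 0.66 in unmutated ones (median 0.47). Lymphomas 18, 22, 30, 34 and 35, without which the Racgap1 call was lost, had ratios of 0.46 to 0.66. Lymphomas 20 and 32 had 0.46 and 0.51, and without either of them the call held. Lymphoma 12 had the highest ratio of the mutated set (0.55) and its highest Racgap1 (306 CPM), but lymphomas 2 and 14, with ratios of -0.08 and -0.01, followed at 277 CPM each. In the unmutated set lymphomas 19 and 21 were low in both (ratios 0.01 and -0.02, Racgap1 at 233 and 226 CPM), while lymphoma 20 had 224 CPM at a ratio of 0.46 and lymphoma 31 had 361 CPM at 0.16. Espl1 was also highest of the mutated set in lymphoma 12 (179 CPM), with 171 CPM in lymphoma 14. In the unmutated set it was highest in lymphoma 22 (246 CPM, ratio 0.46) and lowest in lymphoma 18 (139 CPM, ratio 0.66). Lymphomas 19 and 21 had 139 and 154 CPM of Espl1. The part of chromosome 15 in the levels of Racgap1 and Espl1 was not tested.

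**Figure D3:**
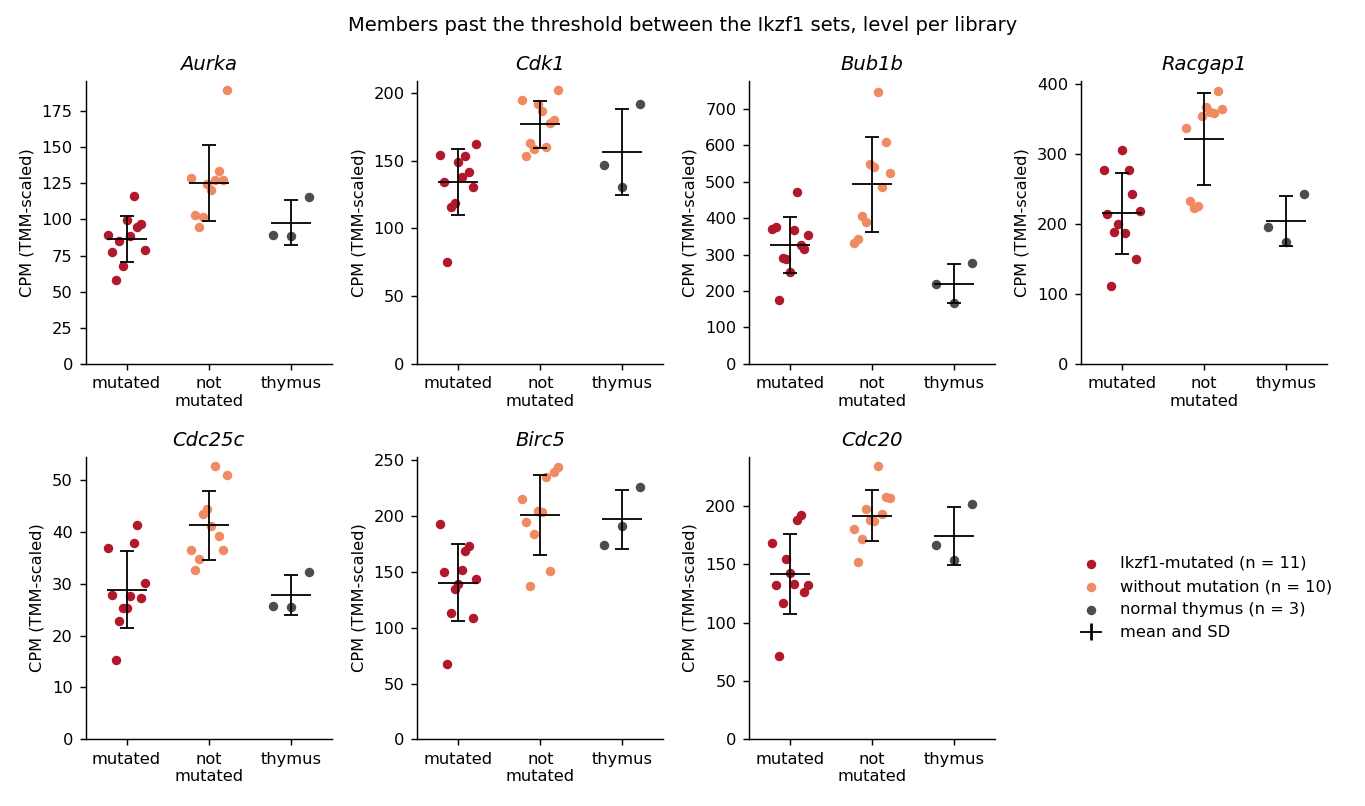
CPM scaled by TMM (y axis, from 0) of the 7 members past the threshold between the sets, 1 point a library, in 11 mutated lymphomas (left), 10 lymphomas without mutation (middle) and 3 thymus libraries (right). The bar marks the mean and the whiskers the SD. In each panel the mutated set lies lower with its range overlapping the unmutated set, and for Bub1b the thymus mean lies below the means of both sets.

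The members that did not pass spread over all roles. Espl1, the separase that cuts cohesin, missed the threshold (-0.54, SE 0.16, edgeR adjusted p = 0.0523), as did Tpx2, the activator of Aurora A (-0.41, SE 0.13, adjusted p = 0.0546), and both passed with DESeq2. Cenpa, the centromeric histone, was at -0.40 (adjusted p = 0.0739) and Kif20a, a kinesin of the midzone, at -0.42 (adjusted p = 0.101). Kif20a shares 1271 exonic bases with Cdc23 on the other strand, Prc1 shares 911 with Rccd1 and Ccna2 510 with Exosc9, so these counts may hold reads of both genes. Smallest were Nusap1, a microtubule binder (-0.02), Foxm1 itself (-0.05) and Anln, the anillin of the contractile ring (-0.06). Foxm1 had 78.2, 173 and 244 CPM in mutated lymphomas, against 79.8, 179 and 211 CPM in unmutated ones, with thymus at 143, 121 and 174 CPM, and all 3 groups overlapped. By role, the medians were -0.25 for cyclins, Cdk1 and its phosphatases, -0.39 for Polo and Aurora kinases and partners, -0.25 for the checkpoint, -0.44 for anaphase and exit, -0.29 for centromere and kinetochore, -0.26 for spindle motors and binders, -0.29 for cytokinesis and -0.16 for Mki67 and Top2a.

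Single libraries decided several of these calls. Without lymphoma 22, 34 or 35 the count of members called lower was 2, without 18 or 30 it was 3, and without 14 it was 10. Without lymphoma 7 it stayed at 7, but the member median moved from -0.29 to -0.23 and 34 of the 36 were below 0. Markers that differed between the sets were 2 of 7 erythroid genes, Hbb-bs and Hbb-bt, higher in the mutated set (summed list 6.95 to 343 CPM, against 11.6 to 53.6 CPM in unmutated lymphomas), and Col1a2 of 10 fibroblast genes. Of 13 macrophage genes all lay below 0 and 0 were called (320 to 948 CPM in the mutated set and 393 to 1447 CPM in the unmutated set), and of 10 T-cell genes 0 were called. All 8 B-cell genes lay below 0 too (median -0.51) and 0 were called. They summed to 6.87 to 210 CPM in the mutated set and 2.78 to 241 CPM in the unmutated set. Their part in the difference was not tested.

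Set against normal thymus, 34 of the 36 members did not pass the test in the lymphomas. Bub1b was higher and Cenpa lower, where 15.4% of all tested genes were higher and 15.4% lower (30.8% in either direction), and the member median was 0.11, against 0.07 over all genes. That median was 0.02 without thymus library 2 (0.08 over all genes, 18 members below 0) and 0.30 without library 3 (0.10 over all genes, 5 members below 0), and 0.02 on both TPM scales. An unadjusted p under 0.05 was reached by 4 of the 36 members and by 5474 of the 13121 tested genes. Bub1b had 175, 369.9 and 748 CPM (lowest, median and highest) in the lymphomas, against 219, 167 and 276 CPM in thymus. It lay above every thymus library in 19 of 21 lymphomas, with a log2 fold change of 0.88 (SE 0.30, edgeR adjusted p = 0.0267), lost without thymus library 1 or 2 (adjusted p up to 0.168). Cenpa, which marks centromeres in place of histone H3, had 56.1, 99.5 and 160.1 CPM in the lymphomas, against 137, 147 and 164 CPM in thymus. It lay below every thymus library in 20 of 21 lymphomas, with a log2 fold change of -0.56 (SE 0.20, edgeR adjusted p = 0.0379), lost without any 1 thymus library or with no filter on low counts.

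The usual markers of dividing cells did not pass between lymphomas and thymus. Mki67, which coats mitotic chromosomes, had 423, 945 and 1406 CPM in the lymphomas, against 907, 669 and 1091 CPM in thymus (log2 fold change 0.08, SE 0.25, edgeR adjusted p = 0.843). Top2a had 698, 1259 and 1775 CPM, against 1169, 831 and 1447 CPM in thymus (0.11, SE 0.22, adjusted p = 0.720). Thymus lay inside the lymphoma range for both. Cdk1 had 75.4, 155 and 203 CPM, against 147, 131 and 192 CPM in thymus (-0.02, SE 0.18, adjusted p = 0.947). Foxm1 had 78.2, 175 and 244 CPM, against 143, 121 and 174 CPM in thymus (0.16, SE 0.24, adjusted p = 0.653). Aurkb, the kinase of the passenger complex, had 69.8, 144 and 207 CPM, against 116, 96.3 and 143 CPM (0.33, SE 0.23, adjusted p = 0.297). Ccnb1, the cyclin B1 of entry, had 92.6, 191 and 269.6 CPM, against 137, 109.5 and 172 CPM (0.44, SE 0.20, adjusted p = 0.104), and lay above thymus in 15 lymphomas. Without lymphoma 7, Ccnb1, Bub1 and Espl1 passed as well, making 4 higher.

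By role, centromere and kinetochore genes had the lowest median against thymus (-0.30) and cytokinesis genes one of 0.38. Cenpf and Cenpe, large proteins of the outer kinetochore, and Ndc80, which grips microtubules, were at -0.37, -0.21 and -0.30 without passing, whereas Nuf2, the partner of Ndc80, was at 0.27. No lymphoma exceeded the thymus range for Cenpa, Cenpe, Cenpf, Ndc80 or Ube2c. The cyclins went apart too, Ccnb1 at 0.44 and Ccnb2 at -0.19. The other checkpoint genes, Bub1, Ttk and Mad2l1, were at 0.42, 0.21 and 0.08, and the spindle genes Kif11, Kif2c, Hmmr and Nusap1 at 0.68, 0.20, 0.10 and -0.11.

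Each set was also compared with thymus, and these comparisons share the 3 thymus libraries. In the mutated set 0 members were higher and 2 lower than thymus (13.1% and 12.9% of all tested genes, 26% in either direction), and the member median was -0.01, with no stable sign (-0.11 without thymus library 2, 0.18 without library 3). Cenpa had 56.1, 90.0 and 121 CPM there, against 137, 147 and 164 CPM in thymus, below it in all 11 lymphomas (log2 fold change -0.77, SE 0.19, edgeR adjusted p = 0.00461), and it passed in every fit with 1 library left out. Ube2c had 55.8, 102 and 182 CPM, against 149.6, 152 and 195 CPM in thymus, below it in 10 of 11 lymphomas (-0.63, SE 0.22, edgeR adjusted p = 0.0367). Ube2c shares 592 exonic bases with Tnnc2 on the other strand, and its call was lost without lymphoma 9 or any thymus library. Bub1b was at 0.57 (adjusted p = 0.0841), and passed without lymphoma 7, as Birc5 (-0.49, adjusted p = 0.0724) did without lymphoma 2.

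In the unmutated set 5 members were higher and 0 lower than thymus (18% and 17.3% of all tested genes, 35.4% in either direction), with a member median of 0.22 (0.10 without thymus library 2, where that of all genes was 0.08, and 0.44 without library 3). Bub1b was again first (log2 fold change 1.16, SE 0.25, edgeR adjusted p = 0.00130), and it passed in every fit with 1 library left out. Espl1 had 139, 179.7 and 246 CPM, against 96.2, 79.0 and 116 CPM in thymus, above it in all 10 lymphomas (0.95, SE 0.26, adjusted p = 0.00693). Racgap1 (0.65, adjusted p = 0.0357) and Cdc25c (0.57, adjusted p = 0.0398) followed with the values given above. The Espl1 call was lost without thymus library 2, and that of Racgap1 without thymus library 1 or 2. That of Cdc25c was lost without lymphoma 21, 22 or 31 or thymus library 1 or 2. In all lymphomas against thymus, the 492 other tested genes of chromosome 15, where Espl1 and Racgap1 lie, had a median of 0.32. Their part was not tested. Ccnb1 had 152, 212 and 248 CPM, against 137, 109.5 and 172 CPM (0.54, SE 0.21, adjusted p = 0.04995), and 18 of 24 fits with 1 library left out lost that call. Cenpa was not called in this set (-0.37, adjusted p = 0.138). Without thymus library 2 the count of higher members was 1, without thymus 1 it was 2, and without thymus 3 or lymphoma 7 it was 8. Leaving out lymphoma 21, 22 or 31 gave 3.

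**Figure D4:**
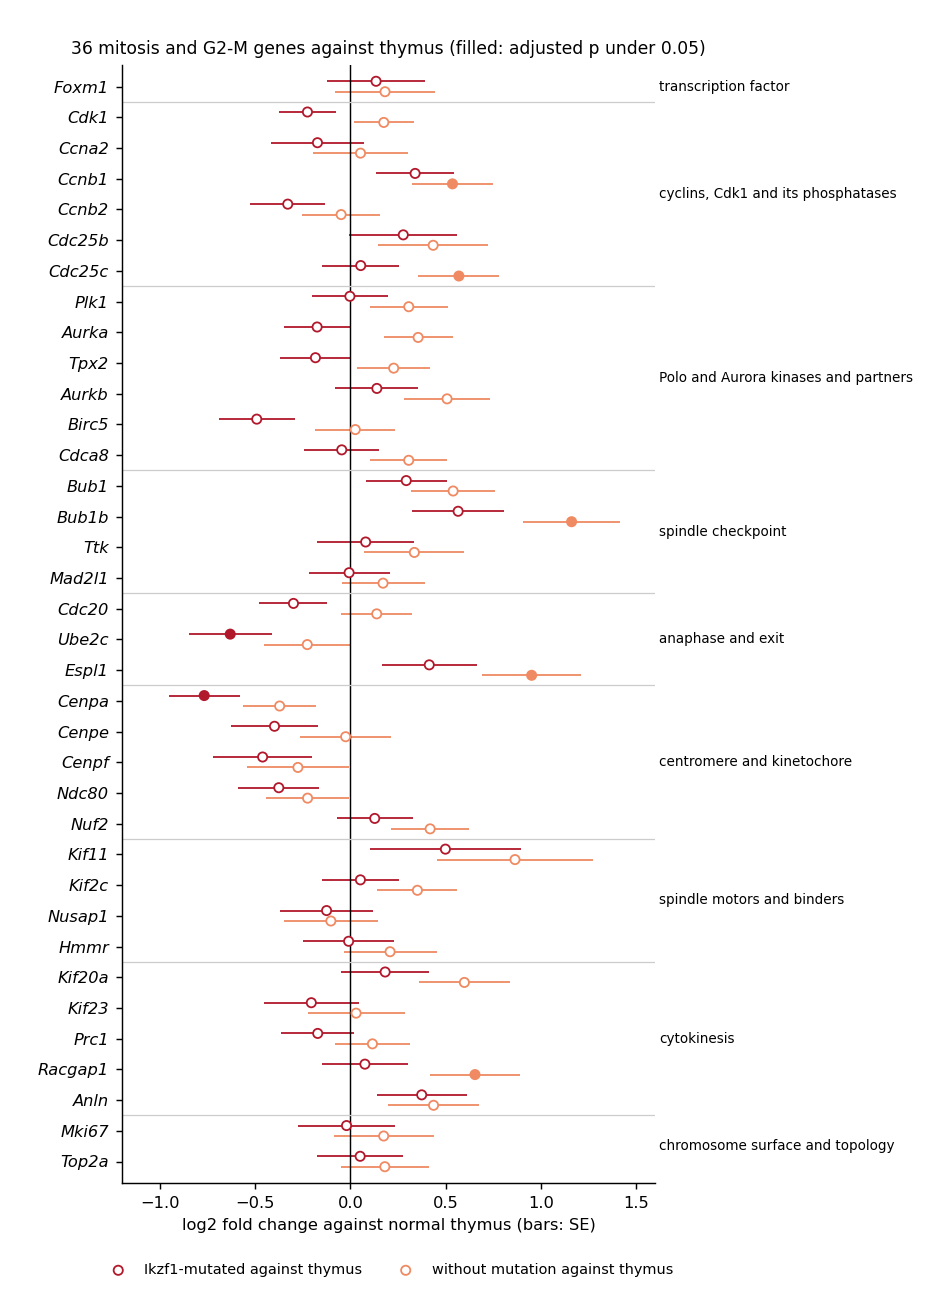
log2 fold change against normal thymus (x axis, whiskers are SE) of the 36 members (rows, grouped by role), for mutated lymphomas (dark red, upper point of each pair) and lymphomas without mutation (orange, lower point). Filled points passed the adjusted threshold. The dark point lies left of the orange one for all 36 members, Nusap1 and Foxm1 being close to level, and the filled points are Cenpa and Ube2c in the mutated set and Bub1b, Espl1, Racgap1, Cdc25c and Ccnb1 in the other.

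Across the 21 lymphomas most members followed Foxm1. The correlation of log2(CPM + 1) with the other 35 members ran from 0.30 to 0.93 (Pearson r, median 0.74), and 32 passed by a permutation test with Benjamini-Hochberg adjustment over the 35 relations. Of the 13120 other tested genes, 7.7% had an r at or above 0.49, the lowest of those 32, and the median r was -0.02. By Spearman's rho, 31 passed (rho 0.16 to 0.90, median 0.65). Closest was Ccna2, cyclin A2, with r = 0.93 (adjusted permutation p = 5.83e-05) and rho = 0.87 (adjusted p = 0.000117), the unadjusted p of both, 1e-05, being the smallest that 100000 permutations can give. Anln (r = 0.91, rho = 0.81), Mki67 (r = 0.90, rho = 0.89) and Ttk, the kinase Mps1 (r = 0.87, rho = 0.90), came next. Cdc25b (r = 0.30, adjusted permutation p = 0.187), Ube2c (r = 0.31, adjusted p = 0.174) and Aurka (r = 0.32, adjusted p = 0.167) did not pass by r. By rho, Cdc25b passed (0.48, adjusted permutation p = 0.0357), while Ube2c (0.16, adjusted p = 0.479), Aurka (0.21, adjusted p = 0.377), Cdk1 (0.23, adjusted p = 0.343) and Tpx2 (0.44, adjusted p = 0.0508) did not. Both values of a pair come from 1 library and share its scaling.

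Lymphomas 7 and 20 were the 2 farthest from the Foxm1 median. Without them r was -0.23 to 0.88 (median 0.60) and 26 members passed (5.35% of all tested genes at or above their lowest r), Ccna2 at 0.88 and Ube2c at -0.23. Within the mutated set 30 members passed (r median 0.87, n = 11, permutation test), and within the unmutated set 9 (r median 0.70, n = 10), or 3 by rho. The mutated set held lymphoma 7 and the unmutated set lymphoma 20. The share of all tested genes at such r was not counted within either set, so these counts have no background beside them. Cdk1 went with Foxm1 in the mutated set (r = 0.83) and not in the unmutated one (r = -0.01). Whether the sets differ in this was not tested.

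The genes around the members were read from lists of the same pathway. Of 30 DNA replication genes, 8 were higher in the lymphomas than in thymus (26.7%, against 15.4% of all tested genes, median 0.51) and 0 lower, led by Pole, the leading-strand polymerase (0.99, edgeR adjusted p = 0.00712), Rrm1 of ribonucleotide reductase (0.77, adjusted p = 0.00850), the primase subunit Prim2 (0.90, adjusted p = 0.00959) and the helicase subunit Mcm6 (0.78, adjusted p = 0.0154). In the mutated set 4 were higher (13.3%, against 13.1% of all tested genes) and in the unmutated set 14 (46.7%, against 18%). The summed level of the members over that of the replication genes was 0.784 to 1.45 in the lymphomas (median 1.00), against 1.28, 1.19 and 1.36 in thymus. Lymphomas 31, 14 and 35 reached the lowest thymus ratio and the other 18 did not. Between the sets 28 of the 30 replication genes lay below 0 (median -0.22). Of them 1 (3.33%, against 2.95% of all tested genes), Rpa2 of the single-strand binding complex, was called lower (-0.47, edgeR adjusted p = 0.0337).

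**Figure D5:**
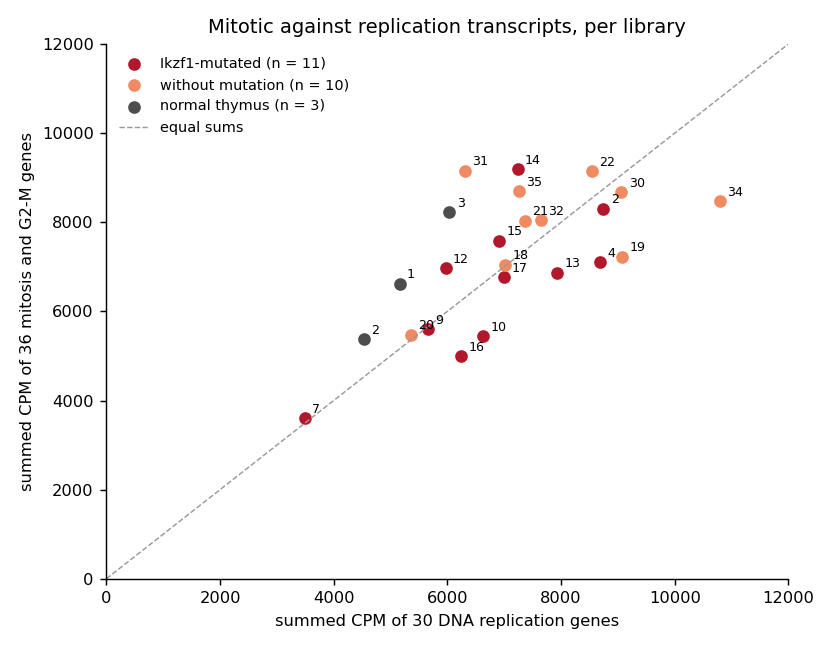
Summed CPM of the 36 members (y axis) against that of 30 DNA replication genes (x axis), 1 point a library with its number, for mutated lymphomas (dark red), lymphomas without mutation (orange) and thymus (grey). The dashed line marks equal sums. The 3 thymus libraries lie above the line with ratios of 1.19 to 1.36, and the lymphomas spread around it from 0.784 to 1.45.

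Of the 13 genes of DREAM, MuvB and their partners, 2 were higher and 3 lower than in thymus (38.5% called, against 30.8% of all tested genes). Mybl2, which encodes B-Myb (0.82, edgeR adjusted p = 0.0252), and Tfdp1, the partner of E2F factors (0.58, adjusted p = 0.0188), were higher. The MuvB subunits Lin37 (-0.67, adjusted p = 0.000766) and Lin52 (-0.82, adjusted p = 0.00247) and Dyrk1a, the kinase that phosphorylates Lin52 (-0.73, adjusted p = 0.00457), were lower. Between the sets 0 of the 13 were called. Of 7 CDK inhibitors, 1 was higher than in thymus and 2 lower (42.9% called, against 30.8% of all tested genes). Cdkn2d (p19Ink4d) fell by 1.94 and Cdkn1b (p27) fell by 1.55 on the log2 scale (edgeR adjusted p = 2.77e-06 and 0.000212), and 0 of the 7 differed between the sets. Cdkn2a, at 18.3 ± 25.7 CPM in the lymphomas and 0.208 ± 0.105 CPM in thymus (SD, n = 21 and 3), was higher (6.42, SE 1.83, edgeR adjusted p = 0.0104), a fold that rests on few counts in thymus.

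Of 19 tested genes of G2 entry, 4 were higher than in thymus and 2 lower (31.6% called, against 30.8% of all tested genes), with Cdkn3, a phosphatase of Cdk1, at -0.89 (edgeR adjusted p = 0.00949), Ensa, an inhibitor of the phosphatase PP2A, at -0.30 (adjusted p = 0.0168), the Cdk subunit Cks1b at 0.59 (adjusted p = 0.0326) and Bora, which helps activate Plk1, at 0.39 (adjusted p = 0.0329). The other lists were called less than the 30.8% of all tested genes, at 13.6% for the anaphase-promoting complex, 13.3% for condensin and cohesin, 15.2% for the kinetochore and 11.8% for the spindle. Of 22 genes around the anaphase-promoting complex, Mad1l1, the checkpoint protein that recruits Mad2, was lower (-1.36, adjusted p = 9.08e-07). Mad2l1bp, the p31comet that binds Mad2, was lower too (-0.69, adjusted p = 0.000111), while Anapc1, the largest subunit of the complex, was higher (0.80, adjusted p = 0.00247). Of 15 condensin and cohesin genes, Smc4 was lower (-0.63, adjusted p = 0.0169) and Pds5a higher (0.46, adjusted p = 0.0484). Among 33 other kinetochore and centromere genes 3 were higher and 2 lower, led by Cdca2 (0.96, adjusted p = 0.00472), Cenpt (-0.55, adjusted p = 0.00606), Cenpw (0.75, adjusted p = 0.0135) and Pmf1 (0.63, adjusted p = 0.0443). Among 34 other spindle genes 3 were higher and 1 lower, namely Iqgap3 (0.90, adjusted p = 0.0181), Haus6 (0.65, adjusted p = 0.0224), Haus3 (-0.58, adjusted p = 0.0248) and Stil (0.81, adjusted p = 0.0480).

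Between the lymphoma sets these lists leaned the same way with few calls. Below 0 were 28 of 33 kinetochore, 29 of 34 spindle, 18 of 22 anaphase-promoting complex, 10 of 15 condensin and cohesin, and 14 of 19 G2 entry genes. These shares were 66.7% to 85.3%, against 49.6% of all tested genes. Calls were 6.06% for the kinetochore, 2.94% for the spindle, 4.55% for the anaphase-promoting complex, 6.67% for condensin and cohesin and 0% for G2 entry. Of all tested genes, 5.38% were called in either direction and 2.95% lower. Called lower in the mutated set were Mis18a, which loads Cenpa at centromeres (-0.39, edgeR adjusted p = 0.0128), Cenpm (-0.70, adjusted p = 0.0280), Troap (-0.64, adjusted p = 0.0249), Ncaph2 of condensin II (-0.53, adjusted p = 0.0128) and Ube2s, which extends ubiquitin chains for the anaphase-promoting complex (-0.40, adjusted p = 0.0318), and 0 genes of these lists were called higher. Cenpm, Troap and Ncaph2 lie on chromosome 15, whose lower median between the sets is given above.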

How the data were processed

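Poly(A) RNA was sequenced from 21 lymphomas and 3 thymus samples. The submitters' processing notes name HISAT2 2.0.1, HTSeq 0.6.1, cutadapt 1.9.1, edgeR and SAMtools, with the build GRCm38.p6. Whether counting used strand is not stated there, nor are settings. The authors deposited raw counts, whole numbers by gene symbol, and TPM for the same libraries, in which 1 repeated symbol was summed (21879 lines). The authors' filtered count tables (12194 and 12109 genes) gave the mutation sets and equal the full table in 100% of cells. A further deposited CPM table was not used. The members, lists and tests were chosen with earlier results of these data known. Tests over all genes used edgeR 4.0.16 under R 4.3.3 (TMM, filterByExpr leaving 13121 genes, glmQLFit, glmQLFTest, Benjamini-Hochberg, threshold 0.05), in a model of lymphoma and thymus and a model of the 3 groups. Background shares are counted over those genes. The code was tested on simulated data. DESeq2 1.42.0, limma 3.58.1 (voom, and trend on log2(TPM + 0.1) and log2(TPM + 1)), RLE scaling, no filter, the filtered tables and fits without each library were the alternatives. Library pairs differed by more than sampling noise (chi-square per degree of freedom at least 48.9 in lymphomas and 9.5 in thymus). Named are all members, with full values for those past the threshold, those whose call differs in a set, and Mki67, Top2a, Ccnb1, Cdk1, Aurkb and Foxm1, and of each other list up to 4 called genes with the smallest p. SE is the fold change over the root of F.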

Additional observations from a re-analysis of the deposited data

Results flagged for a closer look

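In the unmutated set, 1 lymphoma stood apart from the other 9 for 4 of 36 members, by a gap larger than Dixon's critical value of 0.466 of the group's range for 10 samples. Chance flags about 1 in 20 such groups. Cdc25b, a phosphatase of Cdk1, had 419 CPM in lymphoma 32, next to 233 CPM. Aurka had 189 CPM in lymphoma 35, next to 133 CPM, and Kif20a, which shares 1271 exonic bases with Cdc23, had 279 CPM in the same lymphoma, next to 195 CPM. Anln had 51.3 CPM in lymphoma 20, below the next value of 84.4 CPM.

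The 7 members called between the sets are listed here as effects against thymus that differ between the sets. With shared thymus libraries this is the same contrast, and the same values, as the comparison of the sets reported above, not a further test. The mutated minus unmutated log2 differences were -0.40 for Cdk1, -0.52 for Cdc25c, -0.53 for Aurka, -0.52 for Birc5, -0.60 for Bub1b, -0.44 for Cdc20 and -0.58 for Racgap1.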

How the results depend on the processing

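Between the sets, the 7 members called lower became 1 on log2(TPM + 0.1) and 1 on log2(TPM + 1), and 4 with no filter on low counts, where more genes enter the adjustment. With 1 library left out they were 2 to 10. Over all genes DESeq2 called 1288 between the sets, against 706, and the fits without 1 library 301 to 1221. The share of calls that were higher in the mutated set was 45.2% by edgeR and 76.9% on log2(TPM + 0.1). Aurka held its call in all 6 other settings.

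Against thymus, higher members numbered 2 with DESeq2, and lower members 0 with no filter. With 1 library left out they were 0 to 4 and 0 to 1, and all calls 1929 to 4435. For the mutated set, lower members were 1 in the authors' filtered table and 1 with no filter, and 1 to 3 with 1 library left out, with 0 to 1 higher and 1441 to 3904 calls in all. For the unmutated set, both TPM scales gave 2 higher members, and 1 lower member, Cenpa (-0.52). Of all 13112 genes, log2(TPM + 0.1) called 1620 higher and 3098 lower there (median -0.15), and log2(TPM + 1) called 1507 higher and 3125 lower. With 1 library left out, 1 to 8 were higher, of 2856 to 4895 calls in all. The median of all genes for lymphomas against thymus was 0.07 by edgeR and -0.10 on log2(TPM + 0.1), and the share of higher calls 50% and 38.1% (37.5% by limma-voom). Changes of sign were found for values that never passed: Cdk1 at 0.011 with no filter and from -0.12 to 0.18 with 1 library left out, Mki67 at -0.032 on both TPM scales and from -0.081 to 0.28, and Top2a from -0.062 to 0.34. The members' median against thymus in the mutated set (-0.0077) was 0.0082 with DESeq2, 0.0079 with RLE and 0.033 with no filter. The causes were not tested. Fits without a thymus library rest on 2.

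Foxm1 correlations passed for 9 members within the unmutated set (n = 10, permutation test), 30 within the mutated set (n = 11) and 32 over all lymphomas. The share of all tested genes at such r was 7.7% over all lymphomas and was not counted within the sets. No paired analysis was possible because the library numbers of the groups are names and share only the number 2. Every member had 100 or more counts in each library, so counting error is small beside the spread between libraries.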

Other observations

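Kif11, the least abundant member, had the widest spread: 3.95 to 12.2 CPM over the 3 thymus libraries and 5.31 to 25.9 CPM over the lymphomas, the lowest of them lymphoma 20 and the highest lymphoma 32, both of the unmutated set. Its log2 fold change against thymus in that set was 0.86 (SE 0.41, edgeR adjusted p = 0.102).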
